A study of Mus musculus with 6 samples.

Results

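The genes described here are 30 collagen genes that lie outside the cartilage and tendon collagens, followed across 6 arrays of embryonic mouse limb tissue. They were taken by name: of 19505 named genes on the array, 40 carried a collagen chain symbol (Col, a number, the letter a, a number), and 10 that belong to cartilage or tendon (Col2a1, Col9a1, Col9a2, Col9a3, Col10a1, Col11a1, Col11a2, Col27a1, Col12a1 and Col14a1) were left out. The rule used names only, and each gene is represented by its brightest probe, the one with the highest mean over the 6 arrays.

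The material was autopod, the hand or foot plate of the limb bud, from C57BL/6 embryos at stage E14.5. Cells were cut out of frozen sections with a laser from 3 places: the interzone, the strip where a joint will form; the chondrocytes of the neighbouring growth plate; and the tissue between the digits. Each place was sampled once in the mutant Tgfbr2Prx1KO and once in control littermates labelled wild type, so that there were 6 groups of 1 array: interzone mutant and control, growth plate mutant and control, interdigital mutant and control. By convention the mutant name stands for deletion of Tgfbr2, the type II TGF-beta receptor gene, through a Cre recombinase under the Prx1 promoter, which is active in limb mesenchyme. Per the labels' protocols, 2 mutant and 2 control embryos were used, with no word on whether they were pooled for an array, and the little RNA captured was amplified by PCR before labelling. The design asks how loss of this receptor alters each tissue and how the tissues differ.

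Levels below are log2 signals relative to the 75th percentile of the same array, so that a level of 0 is that percentile, and a difference of 1 is 2-fold. With 1 array per group no difference has a replicate check, and no test was run. A difference of at least 2-fold is used as a descriptive threshold, and only for genes that the scanner software marked well above background on both arrays. Between 72.3% and 88.3% of spots carried that mark, and none was saturated. Medians of the processed signal were 103 units on the growth plate control array and 340 to 502 units on the other 5. The interzone mutant array shared a slide with the 3 control arrays, while the growth plate and interdigital mutant arrays lay on another slide, so that genotype and slide cannot be told apart in the growth plate and interdigital pairs.

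The targeted gene did not separate the genotypes. At its brightest probe Tgfbr2 had a level of 2.22 in mutant and 2.42 in control interzone, 1.20 in mutant and -2.42 in control growth plate, and 1.91 in mutant and 2.49 in control interdigital tissue. A second Tgfbr2 probe gave mutant values above control by 1.91-fold, 3.32-fold and 1.05-fold in the same order of tissues, and another, measured on both arrays in interdigital tissue only, was 12.1-fold lower there. The deleted stretch of the gene is not named in the labels, and a probe outside it checks nothing. Arrays are therefore called by their labels. Markers of growth plate cartilage, 8 genes summed as signal over the 75th percentile, came to 51.35 on the growth plate mutant array and 441.8 on the growth plate control array, against 53.93 and 68.94 on the interdigital mutant and control arrays. Markers of the interzone, 6 genes, summed to 12.83 on the interzone mutant array and 47.45 on the interzone control array, and Gdf6 was not well above background in the mutant.

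Collagens are the main fibrous proteins of the extracellular matrix, built from chains wound into a helix. Fibril-forming collagens (types I, III, V and XXIV) make the cables of skin, bone and loose connective tissue; type IV makes the sheet beneath epithelia and around vessels; type VI makes fine beaded filaments around cells; and smaller groups anchor, link or decorate these structures or span the cell membrane. TGF-beta is a classic inducer of fibrillar collagen genes and of the enzymes that process them in connective tissue cells. In the early limb, mesenchyme between and around the cartilage makes types I and III, while chondrocytes make mostly the cartilage collagens that were left out here.

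All 30 collagens were measured on at least 1 array, and 28 were well above background on all 6. The exceptions at the brightest probe were Col19a1, missed on the interzone mutant array, and Col28a1, measured on the interzone control and interdigital control arrays only. In the interzone, 6 of 28 collagens measured on both arrays were at least 2-fold higher in the mutant and 4 were lower, or 21.4% and 14.3%, beside 17.5% higher and 23.0% lower among all genes. In the growth plate, 8 of 29 were higher and 8 lower, 27.6% each way, beside 22.3% and 32.1%. In interdigital tissue 3 of 29 were higher and 5 lower, 10.3% and 17.2%, beside 10.2% and 15.8%. The median difference over the collagens was -0.12 in the interzone, -0.54 in the growth plate and -0.26 in interdigital tissue, and over all genes -0.13, -0.43 and -0.18, so the collagen medians lay within 0.11 of those of all genes. Among single collagens, 2 genes, Col24a1 and Col8a2, were at least 2-fold lower in all 3 mutant arrays, and 1 gene, Col17a1, was at least 2-fold higher in all 3. The share of all genes on the same side in all 3 tissues was not computed, so these counts have no array-wide value beside them.

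**Figure D1:**
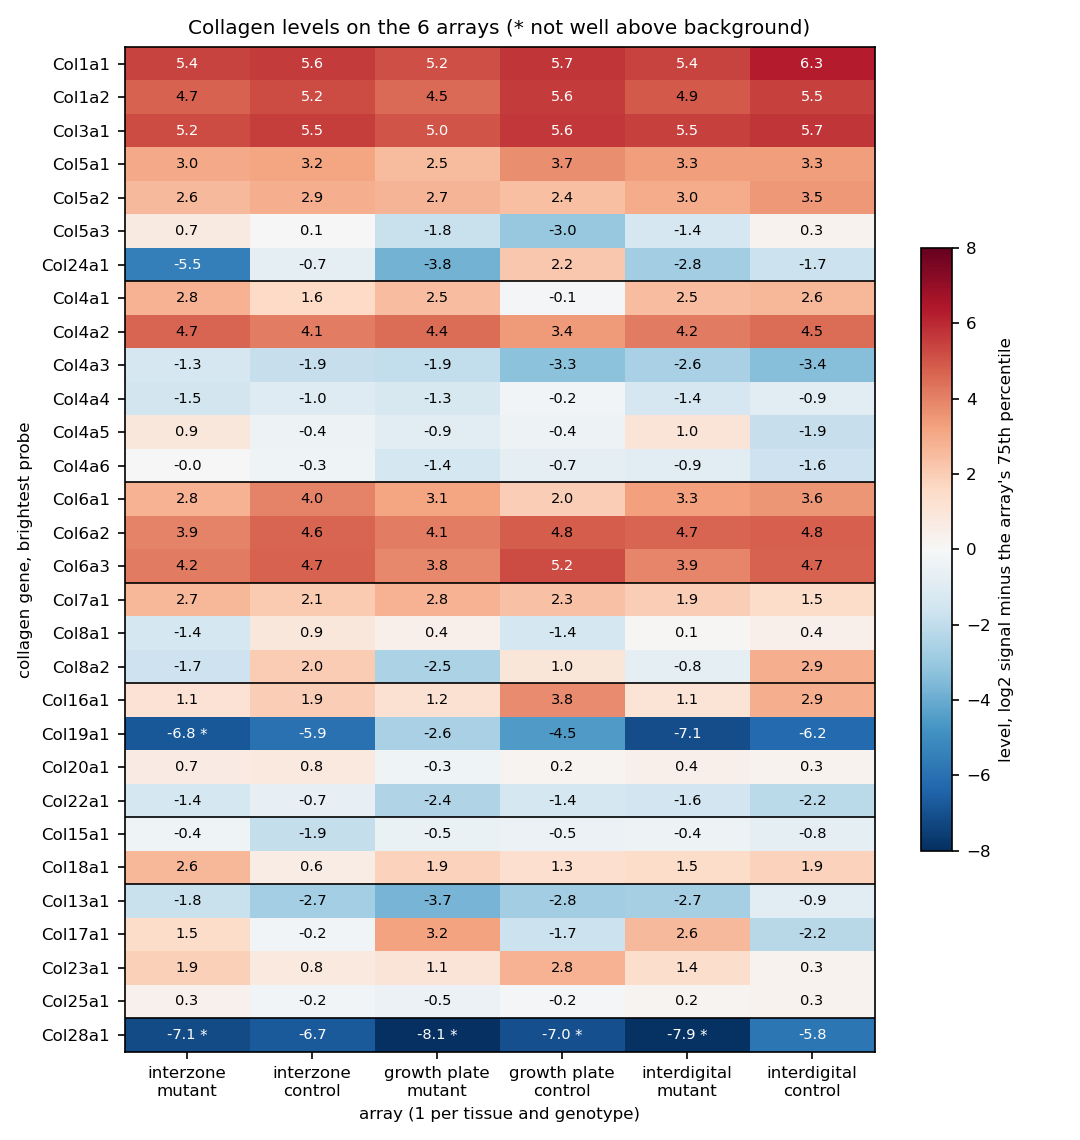
Level of each of the 30 collagens (rows, ordered by class, with lines between classes) on the 6 arrays (columns), as log2 signal minus the array's 75th percentile; an asterisk marks a probe not well above background. Rows should be read along, not against each other: Col8a2 and Col24a1 are lower on each mutant array than on its control, Col17a1 is higher on each, and Col1a1, Col1a2 and Col3a1 stay between 4.51 and 6.26 on all 6.

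In the interzone the collagens kept 6 higher and 4 lower with the normexp background correction, while the counts over all 16669 genes were 5355 higher and 2117 lower with it, beside 2922 and 3833 without it. The split between higher and lower collagens depended on how arrays were scaled in the growth plate. Where each array was divided by its own median, as in the authors' deposited table, 2 were higher and 18 lower in the growth plate mutant, and the median of all genes was -1.56. With the 75th percentile taken over probes measured on all 6 arrays, 8 were higher and 5 lower and the median of all genes was -0.07. Quantile normalization gave 5 higher and 4 lower in interdigital tissue. In laser-captured tissue, fewer cells of a type and less RNA per cell cannot be told apart in any of these values.

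The major fibrillar collagens had levels above 4.5 on all 6 arrays at their brightest probes. In interzone and interdigital tissue these probes differed by less than 2-fold between genotypes under each scaling run. In the growth plate the size depended on the setting: Col1a1 ran between -1.70 and 0.12, Col1a2 between -2.21 and 2.46 and Col3a1 between -1.75 and 2.67, and all 3 were more than 2-fold lower in the mutant with arrays divided by their median. Col1a1, the alpha 1 chain of type I collagen, had a level of 5.43 in mutant and 5.61 in control interzone, 5.15 in mutant and 5.72 in control growth plate, and 5.40 in mutant and 6.26 in control interdigital tissue. At its brightest probe it was lower in each mutant array, by 1.13-fold, 1.48-fold and 1.81-fold, all short of 2-fold. A second Col1a1 probe, printed in 10 spots on each array, gave differences of -0.06, -0.48 and -0.82 in the same order. The standard deviation among its spots on an array was 0.06 to 0.19 log2 units. That spread covers the array measurement only and neither the amplification nor the animals. A further Col1a1 probe had the opposite sign in the interzone, at 0.20. It was 2.08-fold lower in the growth plate mutant, and differed by -0.76 in interdigital tissue.

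Col1a2, the other type I chain, had levels of 4.73 in mutant and 5.23 in control interzone, 4.51 in mutant and 5.60 in control growth plate, and 4.93 in mutant and 5.46 in control interdigital tissue. It passed 2-fold only in the growth plate, where it was 2.12-fold lower in the mutant, and it no longer did so with the other percentile or with quantile normalization. Its other probe was dim and not well above background on the interzone control and growth plate control arrays; averaged in, it turned the growth plate difference to 2.46. Col3a1, the type III chain of stretchable tissues, ran the same way as type I, at 5.25 in mutant and 5.53 in control interzone, 5.02 in mutant and 5.64 in control growth plate, and 5.49 in mutant and 5.70 in control interdigital tissue. Its second probe had the opposite sign in all 3 tissues (1.18, 4.31 and 0.83).

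Type V chains join type I fibrils and set their width. Col5a1 differed by -0.12 in the interzone and by -0.01 in interdigital tissue, and was 2.29-fold lower in the growth plate mutant (2.50 against 3.70 in the control), a difference that fell short of 2-fold with the other percentile and with quantile normalization. Col5a2 stayed within 2-fold in each tissue, at -0.30, 0.33 and -0.53. The minor chain gene Col5a3 had a level of 0.73 in mutant and 0.06 in control interzone, -1.79 in mutant and -3.03 in control growth plate, and -1.36 in mutant and 0.28 in control interdigital tissue. It was thus 2.37-fold higher in the growth plate mutant and 3.12-fold lower in the interdigital mutant; its other probe went the opposite way in the growth plate. The mean of its probes gave -0.22 there and -0.99 in interdigital tissue, both short of 2-fold, and the growth plate difference also fell short with quantile normalization and with arrays divided by their median.

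Col24a1, a fibrillar collagen gene known from developing bone and cornea in mice, gave the widest difference of any of the 30. Its level was -5.47 in mutant and -0.69 in control interzone, -3.80 in mutant and 2.16 in control growth plate, and -2.76 in mutant and -1.74 in control interdigital tissue. All 3 mutant arrays lay below all 3 control arrays. It was 27.6-fold lower in the interzone mutant and 62.0-fold lower in the growth plate mutant, but only 2.02-fold lower in the interdigital mutant, where 3 of the other settings brought it under 2-fold. A second Col24a1 probe was also lower in each mutant, with differences of -2.31, -0.97 and -3.52, so the probes shared the sign and not the size. Over all settings run the interzone difference lay between -4.80 and -1.17, the smallest with the normexp background correction, and the growth plate difference between -7.08 and -3.46, the smallest with the mean of the probes. Among control tissues it was highest in the growth plate, 7.18-fold above the interzone and 14.9-fold above interdigital tissue. Markers of osteoblasts and perichondrium, 5 genes, summed to 3.731 in mutant and 1.486 in control interzone, 1.238 in mutant and 4.7 in control growth plate, and 3.444 in mutant and 7.071 in control interdigital tissue; their part in the Col24a1 differences was not tested.

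The stretch of DNA around the Col24a1 start is shown because the gene was lower on each mutant array. It is a RefSeq window of 300 bases on the plus strand of GRCm38.p6 at chr3:145292222-145292521, read 5′ to 3′, and 56.3% of its bases are G or C. In this and the other windows below, capitals mark 3 motifs searched on both strands: CAGAC, the short Smad-binding element (read as GTCTG where it lies on the minus strand); GGGCGG, the GC box (likewise CCGCCC); and TATAA, a core promoter box (likewise TTATA). Of 32851 promoter windows of that length, 49.6% hold CAGAC, 35.7% GGGCGG and 24.9% TATAA; of the 28 windows matched to 26 of the collagens, 15, 16 and 4 do. No motif letters occur in the Col24a1 window.
Col24a1: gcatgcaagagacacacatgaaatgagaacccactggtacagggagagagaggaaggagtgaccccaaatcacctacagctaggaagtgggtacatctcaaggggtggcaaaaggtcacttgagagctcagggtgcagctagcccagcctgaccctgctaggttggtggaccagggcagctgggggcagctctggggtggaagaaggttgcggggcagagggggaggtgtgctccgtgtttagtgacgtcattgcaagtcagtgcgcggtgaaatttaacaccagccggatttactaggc

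Type IV collagen, the sheet of basement membranes, came out higher in the mutant for some chains and not for others. Of its 6 chains, 2 were at least 2-fold higher in the interzone mutant and none lower, beside 17.5% and 23.0% of all genes; in the growth plate 3 were higher and 1 lower, beside 22.3% and 32.1%; in interdigital tissue 1 was higher and none lower, beside 10.2% and 15.8%. The growth plate count turned to 1 higher and 3 lower with arrays divided by their median, and to 2 and 2 with quantile normalization. Every type IV pair of neighbouring genes, which share the region between their starts, was on the array.

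Col4a1 and Col4a2 encode the chains of the widespread form of type IV collagen, found under epithelia and around all vessels. Col4a1 had a level of 2.78 in mutant and 1.60 in control interzone, 2.48 in mutant and -0.09 in control growth plate, and 2.46 in mutant and 2.64 in control interdigital tissue. The low value was that of the growth plate control, and at this probe the 3 mutant arrays lay within 0.32 of each other. The second Col4a1 probe had 2.79, 1.10 and 1.68 in mutant interzone, growth plate and interdigital tissue. Col4a1 was 2.27-fold higher in the interzone mutant and 5.91-fold higher in the growth plate mutant, on the same side of 2-fold under every other setting run. It was 1.14-fold lower in the interdigital mutant. Col4a2 followed on a smaller scale: 4.66 in mutant and 4.12 in control interzone, 4.44 in mutant and 3.38 in control growth plate, and 4.17 in mutant and 4.49 in control interdigital tissue. Its growth plate difference was 2.10-fold, and -0.06 in log2 with arrays divided by their median. The pair had the same sign in all 3 tissues at their brightest probes, while the second Col4a2 probe differed by 0.12 in interdigital tissue.

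Endothelial marker sums differed in the same direction as the brightest Col4a1 and Col4a2 probes in each tissue. In interdigital tissue, however, Col4a1 differed by only -0.19 and Col4a2 by -0.32. The 8 marker genes summed to 4.87 in mutant and 2.314 in control interzone, 6.739 in mutant and 0.8092 in control growth plate, and 6.449 in mutant and 12.32 in control interdigital tissue. Of those measured on both arrays, 4 of 8 were at least 2-fold higher and none lower in the interzone mutant, 3 of 5 higher and none lower in the growth plate mutant, and none higher and 4 of 8 lower in the interdigital mutant. The shares of all genes higher were 17.5%, 22.3% and 10.2% in the same order, and lower 23.0%, 32.1% and 15.8%. The endothelial receptor genes Kdr, Tie1 and Tek were not well above background on the growth plate control array. The part of these cells in the Col4a1 and Col4a2 differences was not tested.

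The starts of Col4a1 and Col4a2 are shown together because the genes run in opposite directions from a shared region on chromosome 8. Their differences at the brightest probes also had the same sign in all 3 tissues. The Col4a1 window is chr8:11312777-11313076 on the minus strand and the Col4a2 window chr8:11312555-11312854 on the plus strand of GRCm38.p6, so that 78 bases lie in both, each printed 5′ to 3′ on its own strand. The Col4a1 window holds 1 GC box, and the Col4a2 window 3 GC boxes and 1 CAGAC, and the Col4a1 box and the last Col4a2 box are the same bases of the overlap, read on opposite strands; 74.0% and 73.7% of their bases are G or C.
Col4a1: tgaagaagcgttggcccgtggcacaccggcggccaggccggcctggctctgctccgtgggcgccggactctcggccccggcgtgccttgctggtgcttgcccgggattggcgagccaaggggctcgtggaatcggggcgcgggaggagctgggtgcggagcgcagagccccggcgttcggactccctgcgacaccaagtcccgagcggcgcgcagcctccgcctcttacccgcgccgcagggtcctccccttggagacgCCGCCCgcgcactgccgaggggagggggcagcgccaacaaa
Col4a2: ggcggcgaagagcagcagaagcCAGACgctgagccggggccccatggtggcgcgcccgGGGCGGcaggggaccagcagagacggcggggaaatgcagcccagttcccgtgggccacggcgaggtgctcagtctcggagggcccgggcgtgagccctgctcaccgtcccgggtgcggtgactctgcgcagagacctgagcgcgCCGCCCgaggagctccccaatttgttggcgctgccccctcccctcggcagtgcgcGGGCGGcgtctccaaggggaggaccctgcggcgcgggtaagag

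Col4a3 and Col4a4, whose chains belong to the basement membranes of kidney, eye and inner ear, are also neighbours. Their brightest probes had opposite signs in all 3 tissues. Col4a3 differed by 0.54, 1.34 and 0.83 in interzone, growth plate and interdigital tissue, and Col4a4 by -0.47, -1.03 and -0.44. Both passed 2-fold only in the growth plate, Col4a3 at 2.53-fold higher and Col4a4 at 2.04-fold lower, and each lost that side under at least 1 other setting. A second Col4a3 probe lay more than 2-fold the other way there, and differed by -0.27 in the interzone and -0.12 in interdigital tissue. It thus had the sign of Col4a4 in all 3 tissues.

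Col4a5 and Col4a6, the X-linked pair whose chains lie in the basement membranes of skin, smooth muscle and kidney, shared their sign in all 3 tissues at their brightest probes. Col4a5 had a level of 0.89 in mutant and -0.41 in control interzone, -0.92 in mutant and -0.38 in control growth plate, and 1.0 in mutant and -1.85 in control interdigital tissue. It was 2.47-fold higher in the interzone mutant and 7.25-fold higher in the interdigital mutant, under all settings run, and 1.45-fold lower in the growth plate mutant. Col4a6 differed by 0.30, -0.70 and 0.77 in interzone, growth plate and interdigital tissue, within 2-fold in each at its brightest probe. With the mean of its 3 probes it differed by -1.47, 2.29 and 2.56 instead, so that the sign was turned in interzone and growth plate. A second Col4a6 probe was 4.27-fold higher in the interdigital mutant and not well above background on the growth plate control array.

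**Figure D2:**
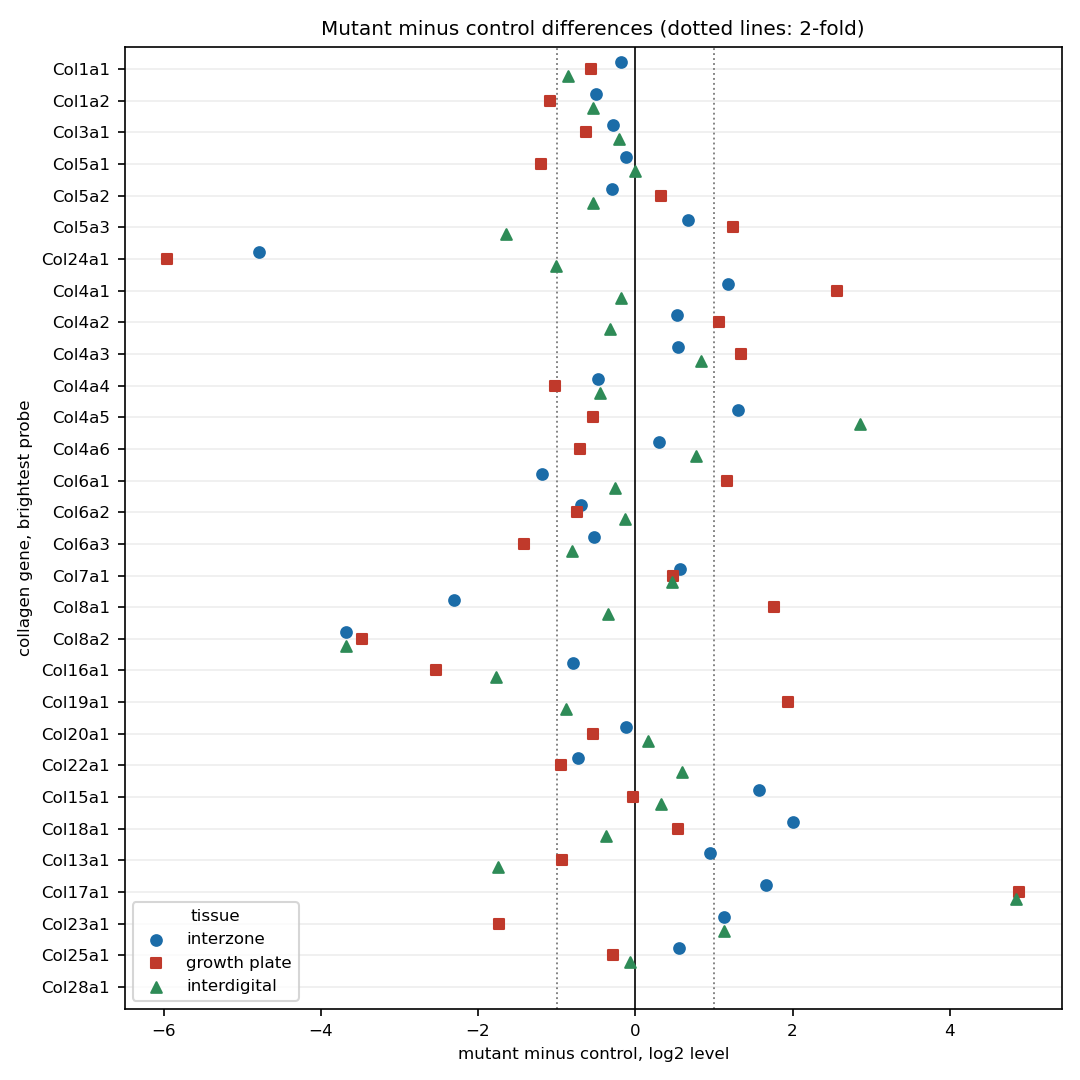
Mutant minus control difference in log2 level (horizontal axis) for each collagen (rows) in interzone (circles), growth plate (squares) and interdigital tissue (triangles), for genes well above background on both arrays; dotted lines mark 2-fold. Col8a2 and Col24a1 lie left of the line in all 3 tissues and Col17a1 right of it, while Col23a1, Col6a1 and Col8a1 have growth plate points on the opposite side from their interzone points; with the mean of a gene's probes the interzone and growth plate points of Col23a1 change sign.

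Type VI collagen forms beaded filaments in the matrix close to cells. At their brightest probes its chains differed by at most 2.67-fold. Col6a1 had a level of 2.77 in mutant and 3.96 in control interzone, 3.14 in mutant and 1.97 in control growth plate, and 3.29 in mutant and 3.56 in control interdigital tissue. It was 2.28-fold lower in the interzone mutant and 2.25-fold higher in the growth plate mutant, and each fell short of 2-fold with arrays divided by their median. Its neighbour Col6a2 was within 2-fold in each tissue, at -0.69, -0.75 and -0.12, and its second probe gave 0.79, -0.11 and -0.57. Col6a3, the longest of these chains, was lower in each mutant at its brightest probe. Its levels were 4.17 in mutant and 4.69 in control interzone, and 3.82 in mutant and 5.24 in control growth plate. In interdigital tissue they were 3.89 in mutant and 4.69 in control. At that probe only its growth plate difference, 2.67-fold lower, passed the threshold, and it did not with quantile normalization. Another Col6a3 probe was 8.71-fold lower in the growth plate mutant and 2.52-fold lower in the interdigital mutant, and differed by 0.14 in the interzone. A further Col6a3 probe was 2.08-fold lower in the interzone mutant and within 2-fold in the other tissues.

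Among network and anchoring collagens, Col8a2 was low on every mutant array. Type VIII collagen forms hexagonal lattices, best known from the cornea and from vessel walls, and Col8a2 encodes its alpha 2 chain. The level of Col8a2 was -1.67 in mutant and 2.01 in control interzone, -2.52 in mutant and 0.96 in control growth plate, and -0.76 in mutant and 2.91 in control interdigital tissue. The highest mutant value lay below the lowest control value. The gene was 12.8-fold lower in the interzone mutant, 11.1-fold lower in the growth plate mutant and 12.8-fold lower in the interdigital mutant, and over these and the 5 other settings the log2 differences ran between -3.71 and -2.97, between -4.60 and -3.11, and between -4.01 and -3.51 in that order. The array had 1 probe for it, so no second probe bears on the result. Genes at least 2-fold lower made up 23.0%, 32.1% and 15.8% of all genes in the 3 tissues.

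The Col8a2 start is shown for the same reason as that of Col24a1. It lies at chr4:126286544-126286843 on the plus strand of GRCm38.p6, holds 4 GC boxes and no CAGAC or TATAA, and is 71.7% G or C. The last 2 GC boxes overlap by 2 bases and appear as 1 run of capitals.
Col8a2: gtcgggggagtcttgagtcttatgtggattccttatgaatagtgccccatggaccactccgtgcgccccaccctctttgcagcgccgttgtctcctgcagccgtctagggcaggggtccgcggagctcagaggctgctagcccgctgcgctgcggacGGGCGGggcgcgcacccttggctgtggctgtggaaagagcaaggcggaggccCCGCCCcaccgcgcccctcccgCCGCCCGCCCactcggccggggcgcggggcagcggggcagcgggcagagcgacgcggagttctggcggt

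Col8a1, the partner chain, did not follow Col8a2. It had a level of -1.43 in mutant and 0.88 in control interzone, 0.39 in mutant and -1.38 in control growth plate, and 0.07 in mutant and 0.42 in control interdigital tissue. That made it 4.95-fold lower in the interzone mutant, 3.40-fold higher in the growth plate mutant and 1.28-fold lower in the interdigital mutant. The growth plate difference fell short of 2-fold with arrays divided by their median and with the mean of the probes. The second Col8a1 probe differed by -2.37, 0.21 and -0.47. Col7a1, whose protein makes the anchoring fibrils that tie epidermis to dermis, was higher in each mutant by less than 2-fold (1.48-fold, 1.39-fold and 1.38-fold).

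Fibril-associated collagens sit on the surface of larger fibrils or link them to other matrix. Col16a1 had a level of 1.14 in mutant and 1.94 in control interzone, 1.23 in mutant and 3.76 in control growth plate, and 1.10 in mutant and 2.88 in control interdigital tissue. The 3 mutant arrays lay within 0.13 of each other, while the 3 control arrays spread over 1.82. It was 1.74-fold, 5.77-fold and 3.42-fold lower in the mutants, in that order of tissues, and its second probe gave 1.22, -2.66 and -0.99. Col20a1 stayed within 2-fold in each tissue, between -0.54 and 0.16. Col22a1 did so at its brightest probe, between -0.95 and 0.60, while its second probe was 14.9-fold lower in the interzone mutant and 3.77-fold higher in the growth plate mutant, and the mean of the probes gave -2.32 in the interzone.

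Col19a1, a rare collagen known from developing muscle, was near the floor on most arrays. It had a level of -2.59 in mutant and -4.54 in control growth plate, 3.86-fold higher in the mutant, and -7.10 in mutant and -6.22 in control interdigital tissue, 1.84-fold lower. In the interzone its brightest probe was measured in the control only (-5.94), and the bound there stayed short of 2-fold. Another Col19a1 probe was well above background on the interzone mutant (-4.77) and growth plate mutant (-4.99) arrays only. The growth plate difference of the brightest probe fell under 2-fold with the normexp background correction, with quantile normalization and with arrays divided by their median. Skeletal muscle markers, 7 genes, summed to 12.87 in mutant and 36.77 in control growth plate. None was at least 2-fold higher and 4 were lower, beside 22.3% and 32.1% of all genes.

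Col15a1 and Col18a1 encode the multiplexins, proteoglycan collagens of the basement membrane zone, and both were at least 2-fold higher in the interzone mutant and within 2-fold in the other tissues, with no test of the difference between tissues. Col18a1, the source of endostatin, had a level of 2.63 in mutant and 0.62 in control interzone, 1.86 in mutant and 1.32 in control growth plate, and 1.48 in mutant and 1.85 in control interdigital tissue. Col15a1 had a level of -0.36 in mutant and -1.93 in control interzone, -0.53 in mutant and -0.49 in control growth plate, and -0.44 in mutant and -0.76 in control interdigital tissue. In the interzone Col18a1 was 4.01-fold and Col15a1 2.97-fold higher in the mutant; second probes gave 1.21 and -0.57, and with the mean of the probes Col15a1 fell short of 2-fold there, at 0.50. The interzone control was the lowest of the control arrays for both genes. The endothelial sum of 4.87 in mutant against 2.314 in control interzone stands beside them, untested.

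Transmembrane collagens are anchored in the cell membrane with the helix outside. Col17a1, the hemidesmosome collagen that fastens basal keratinocytes to their basement membrane, had a level of 1.46 in mutant and -0.20 in control interzone, 3.19 in mutant and -1.69 in control growth plate, and 2.62 in mutant and -2.22 in control interdigital tissue. Every mutant array lay above every control array. The mutants exceeded their controls 3.17-fold, 29.6-fold and 28.6-fold, and a second probe was also higher in each, by 1.04, 2.72 and 4.10 in log2. These were on the same side of 2-fold under all other settings run for the brightest probe and for the probe mean.

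Within each tissue, epidermal markers summed higher on the mutant array than on its control, the direction of Col17a1. The 9 marker genes, keratins and junction genes of the epidermis among them, summed to 155.8 in mutant and 17.09 in control interzone, 164.8 in mutant and 69.01 in control growth plate, and 143.8 in mutant and 2.591 in control interdigital tissue. At least 2-fold higher in the mutant were 8 of 9 in the interzone, 4 of 7 in the growth plate and 7 of 7 in interdigital tissue, and none was lower. The shares of all genes higher were 17.5%, 22.3% and 10.2% in that order, and lower 23.0%, 32.1% and 15.8%. Trp63, the basal keratinocyte transcription factor gene, and Cdh1, the E-cadherin gene, were not well above background on the growth plate control and interdigital control arrays. Among control arrays the marker sum was highest in the growth plate, while Col17a1 was 2.82-fold higher in the interzone than there. Both were lowest in interdigital tissue among controls, and highest in the growth plate among mutants. The part of epidermal cells in the Col17a1 and Col7a1 differences was not tested.

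**Figure D3:**
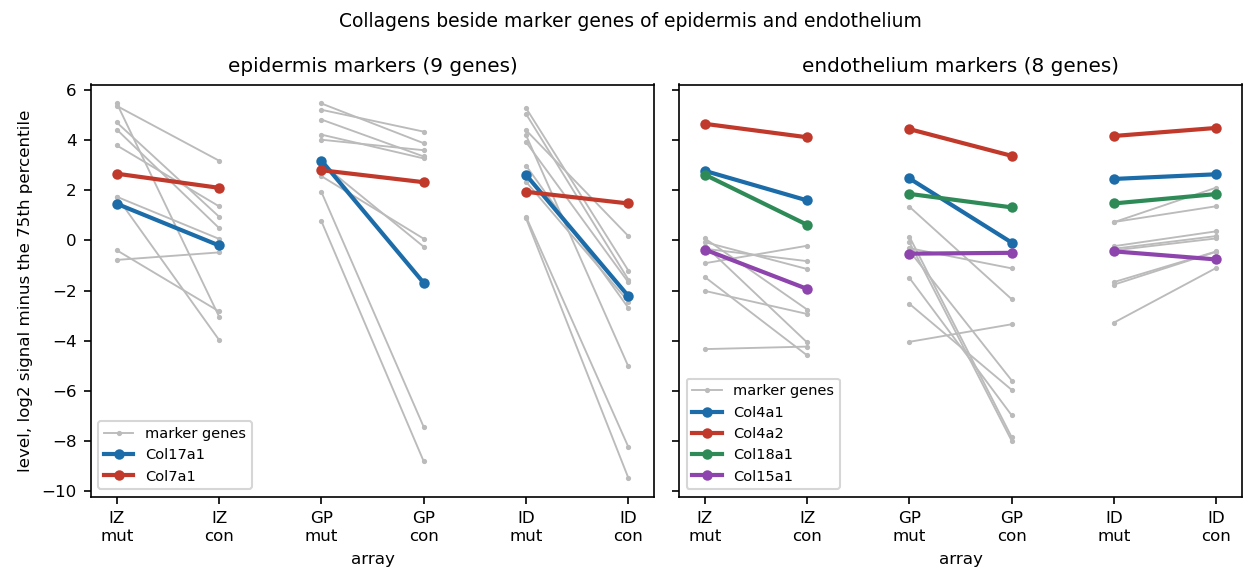
Level (log2 signal minus the array's 75th percentile) of collagens and, in grey, of marker genes, with a line from each mutant array to its control in interzone (IZ), growth plate (GP) and interdigital tissue (ID). On the left Col17a1 slopes down from mutant to control with most of the 9 epidermal markers while Col7a1 differs by less than 2-fold; on the right Col4a1 slopes with the endothelial markers in interzone and growth plate, and in interdigital tissue Col4a1 is 1.14-fold lower in the mutant, where 4 of the 8 markers are at least 2-fold lower.

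The Col17a1 start is shown because the gene was higher on each mutant array. It lies at chr19:47691993-47692292 on the minus strand of GRCm38.p6, is 46.3% G or C, the lowest of the windows printed here, and holds 2 TATAA and neither of the other motifs.
Col17a1: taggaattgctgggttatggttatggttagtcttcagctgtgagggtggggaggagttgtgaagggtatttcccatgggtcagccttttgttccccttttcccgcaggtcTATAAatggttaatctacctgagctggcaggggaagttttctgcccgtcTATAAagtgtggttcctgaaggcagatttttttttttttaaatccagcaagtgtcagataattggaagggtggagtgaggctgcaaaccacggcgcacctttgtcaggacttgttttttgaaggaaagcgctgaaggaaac

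The remaining transmembrane collagens showed no shared direction. Col23a1 had a level of 1.91 in mutant and 0.78 in control interzone, 1.06 in mutant and 2.79 in control growth plate, and 1.39 in mutant and 0.25 in control interdigital tissue. It was 2.18-fold and 2.20-fold higher in the interzone and interdigital mutants and 3.32-fold lower in the growth plate mutant, but 1 of its other probes lay more than 2-fold the opposite way in interzone and growth plate. Col13a1, a collagen of cell adhesion sites and of the neuromuscular junction, had a level of -1.76 in mutant and -2.72 in control interzone, -3.73 in mutant and -2.81 in control growth plate, and -2.67 in mutant and -0.93 in control interdigital tissue. At this brightest probe only the interdigital difference passed 2-fold, at 3.34-fold lower in the mutant. The second Col13a1 probe was 2.47-fold higher in the growth plate mutant, opposite to the brightest. It was 46.5-fold lower in the interdigital mutant and differed by 0.28 in the interzone. Col25a1, needed for motor axons to reach muscle in mice, was within 2-fold in each tissue at its brightest probe (0.55, -0.29 and -0.07). Another Col25a1 probe was 2.95-fold lower in the interzone mutant and 8.13-fold lower in the interdigital mutant, and the mean of the probes gave -2.41 in interdigital tissue.

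Col28a1, a short collagen found mainly around peripheral nerve, was measured on the interzone control and interdigital control arrays only. In interdigital tissue it was at least 4.08-fold lower in the mutant, computed as the control level of -5.76 against the higher of the mutant array's lowest signal well above background and the gene's own signal there. No fold is given for the other tissues. Markers of nerve and Schwann cells, 4 genes, summed to 9.235 in mutant and 4.151 in control interdigital tissue. Of these, 2 were at least 2-fold higher and none lower, beside 10.2% and 15.8% of all genes.

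Where a collagen had further probes on the array, these shared the sign of the brightest probe unevenly. Of 24 further probes measured on both interzone arrays 12 had the same sign, as did 13 of 21 in the growth plate and 18 of 25 in interdigital tissue. Restricted to collagens whose brightest probe was past 2-fold, the counts were 6 of 8, 9 of 12 and 7 of 7. A further probe lay past 2-fold on the opposite side for Col23a1 in the interzone, and for Col23a1, Col4a3 and Col5a3 in the growth plate.

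**Figure D4:**
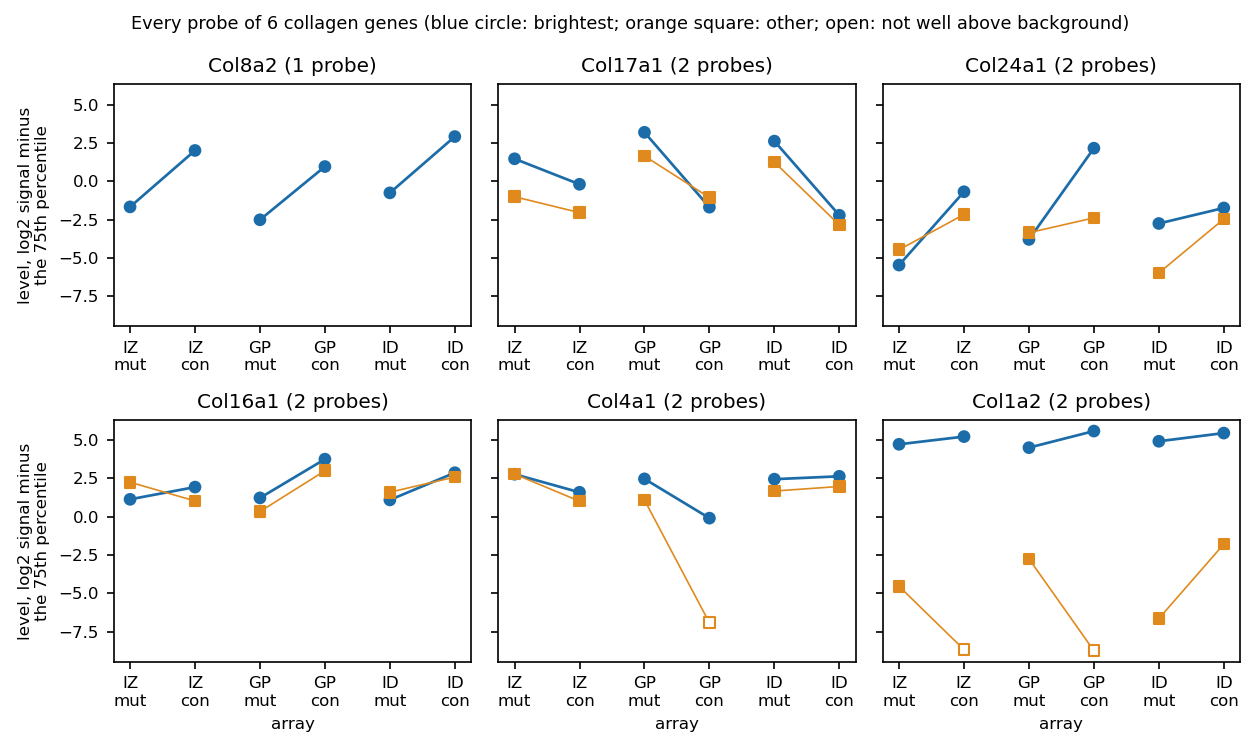
Level (log2 signal minus the array's 75th percentile) of every probe of 6 collagens on the mutant (mut) and control (con) arrays of interzone (IZ), growth plate (GP) and interdigital tissue (ID); circles are the brightest probe, squares the other, and open symbols are not well above background. Both probes of Col17a1 and of Col24a1 differ in the same direction in all 3 tissues, the Col16a1 probes part in the interzone, and the dim second probe of Col1a2 does not track the bright one.

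Tissues of 1 genotype were compared next. Between control interzone and control growth plate, 7 of 29 were at least 2-fold higher in the interzone and 5 lower, beside 25.2% and 23.5% of all genes; with arrays divided by their median the counts were 2 and 17. Control interzone against control interdigital tissue gave 6 of 30 higher and 4 lower, beside 14.9% and 14.7%, with 6 and 1 for arrays divided by their median and 5 and 7 with the other percentile. Control growth plate against control interdigital tissue gave 4 of 29 higher and 8 lower, beside 24.7% and 25.0%, with 19 and 2 for arrays divided by their median and 8 and 9 with quantile normalization.

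Among the controls, several chains differed several-fold between tissues while the type I and III genes differed little. Col5a3 was 8.53-fold higher in control interzone than in control growth plate and 9.97-fold lower in control growth plate than in control interdigital tissue. Col4a1 was 3.22-fold higher in control interzone than in control growth plate, and 6.63-fold lower in control growth plate than in control interdigital tissue. Col16a1 was 3.54-fold and Col23a1 4.01-fold lower in control interzone than in control growth plate. Col17a1 was 4.06-fold higher and Col13a1 3.45-fold lower in control interzone than in control interdigital tissue. Another Col23a1 probe lay the other way, at 1.05 in control interzone and -5.21 in control growth plate. The other Col5a3 probe had -1.42 in control growth plate and -2.33 in control interdigital tissue, also the opposite order. Further probes of Col4a1, Col16a1, Col17a1 and Col13a1 kept the direction, that of Col4a1 not well above background on the growth plate control array. The type I and III genes differed by at most 0.66 between any of the control tissues at their brightest probes. The second Col3a1 probe had 2.04 in control interzone, -2.64 in control growth plate and 2.93 in control interdigital tissue.

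The same comparisons were made among the mutant tissues. Mutant interzone against mutant growth plate gave 4 of 28 higher and 3 lower, beside 21.2% and 18.3% of all genes, with 7 and 3 for arrays divided by their median and 8 and 2 with the normexp background correction. Mutant interzone against mutant interdigital tissue gave 3 of 28 higher and 3 lower, beside 18.1% each way, with 6 and 2 for arrays divided by their median. Mutant growth plate against mutant interdigital tissue, which share a slide, gave 1 of 29 higher and 4 lower, beside 13.3% and 16.2%, with 2 and 2 for arrays divided by their median, 1 and 2 with quantile normalization or with the normexp background correction, and 4 and 4 with the mean of the probes.

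Some tissue differences were found in both genotypes and others in 1, with no test of the difference between genotypes. Col5a3 was 5.70-fold higher in mutant interzone than in mutant growth plate and 4.24-fold higher than in mutant interdigital tissue. Col4a1, by contrast, differed at its brightest probe by at most 0.32 between mutant tissues, and by up to 2.73 between control tissues. At its brightest probe Col19a1 was 22.8-fold higher in mutant growth plate than in mutant interdigital tissue. The same probe was at least 15.1-fold lower in mutant interzone than in mutant growth plate. Another Col19a1 probe had -4.77 in mutant interzone and -4.99 in mutant growth plate, and was not well above background in mutant interdigital tissue. The tissue with the highest level was the same in both genotypes for 11 of the 30 collagens. No share of all genes was computed for this count, and the 30 include Col19a1 and Col28a1, which were not measured on every array. The tissue with the highest level was the interzone for 15, the growth plate for 6 and the interdigital tissue for 9 among mutant arrays, and for 7, 12 and 11 in that order among control arrays. Among all genes measured on all 6 arrays, the same shares were 43.1%, 29.0% and 27.9% on mutant arrays and 30%, 44.2% and 25.9% on control arrays.

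Collagen chains need a set of enzymes and carriers to be folded, exported, trimmed and cross-linked, and a list of 31 such genes was examined, 30 of them on the array. In the interzone 2 of 27 measured on both arrays were at least 2-fold higher in the mutant and 10 lower. Among all genes the shares were 17.5% and 23.0%. The list's median was -0.64, beside -0.13 for all genes. The widest differences were those of Mia3, which loads procollagen for export (6.14-fold lower), the cross-linking enzyme gene Lox (5.96-fold lower), Crtap, a partner of prolyl hydroxylation (4.83-fold lower), and the lysyl hydroxylase gene Plod2 (4.35-fold lower). In the growth plate 3 of 27 were higher and 18 lower, beside 22.3% and 32.1% of all genes, with a median of -1.71 beside -0.43. There Pcolce2, an enhancer of procollagen trimming, was 68.6-fold, the procollagen protease gene Adamts3 18.4-fold and the lysyl hydroxylase gene Plod3 15.4-fold lower, while the cross-linking enzyme gene Loxl1 was 25.8-fold higher. In interdigital tissue none of 29 was higher and 7 were lower, beside 10.2% and 15.8% of all genes, with a median of -0.47 beside -0.18. Pcolce2 was 4.53-fold, the tolloid-like protease gene Tll1 4.09-fold, the prolyl hydroxylase gene P4ha3 3.43-fold and Adamts3 2.98-fold lower there. The list's median was below 0 in all 3 tissues under each of the 5 other settings.

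Cartilage markers were read beside this list. Of 8 markers none was at least 2-fold higher and 6 were lower in the interzone mutant, none higher and 8 lower in the growth plate mutant, and none higher and 1 lower in the interdigital mutant; their sums were 63.32 in mutant and 126.5 in control interzone, with the growth plate and interdigital sums as given above. The shares of all genes higher were 17.5%, 22.3% and 10.2% in interzone, growth plate and interdigital tissue, and lower 23.0%, 32.1% and 15.8%. The part of the cartilage markers in the processing genes was not tested.

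Basement membrane partners, the laminins, nidogens and proteoglycans that assemble with type IV collagen, did not move as a block. Of 16 genes listed 15 were on the array. In the interzone 1 of 14 measured on both arrays was at least 2-fold higher in the mutant and 6 were lower, beside 17.5% and 23.0% of all genes (median -0.76, beside -0.13), with Lamc1, the gamma chain of most laminins, 12.5-fold, Lamb3 4.39-fold, Agrn 3.57-fold and Nid1 3.03-fold lower. In the growth plate 5 of 13 were higher and 4 lower, beside 22.3% and 32.1% (median 0.61, beside -0.43, and -0.52 with arrays divided by their median). The epidermal laminin chain genes Lama3 and Lamb3 were 108-fold and 16.4-fold higher there, and Nid2 was 8.02-fold lower. Lama3 had a low level of -4.87 on the growth plate control array and 1.88 on the mutant array. In interdigital tissue 5 of 14 were higher and 1 lower, beside 10.2% and 15.8% (median 0.11, beside -0.18), led by Lamb3 (20.7-fold), Lama5 (12.9-fold) and Lama3 (8.96-fold). The epidermal marker sums given beside Col17a1 apply to these laminin genes also.

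Collagen receptors are integrins and kinases through which cells bind the fibrils, and all 8 listed were on the array. In the interzone 1 of 7 measured on both arrays was at least 2-fold higher and 3 were lower, beside 17.5% and 23.0% of all genes (median -0.37, beside -0.13). In the growth plate 2 of 7 were higher and 4 lower, beside 22.3% and 32.1% (median -1.35, beside -0.43, and 0.32 with the mean of each gene's probes). In interdigital tissue none of 8 was higher and 2 were lower, beside 10.2% and 15.8% (median -0.15, beside -0.18, and 0.02 with arrays divided by their median). Itga11, the integrin subunit for type I collagen on connective tissue cells, was 126-fold lower in the interzone mutant, 70.8-fold lower in the growth plate mutant and 2.11-fold lower in the interdigital mutant. Its mutant levels were low in interzone (-5.07) and growth plate (-6.93), and 0.27 in interdigital tissue. The collagen-sensing kinase gene Ddr2 was 54.5-fold higher in the growth plate mutant, at 1.70 against -4.07 in the control. Itga2, a collagen-binding integrin subunit named here after its values were seen, was not well above background on the interzone control array and was at least 41.5-fold higher in the interzone mutant.

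**Figure D5:**
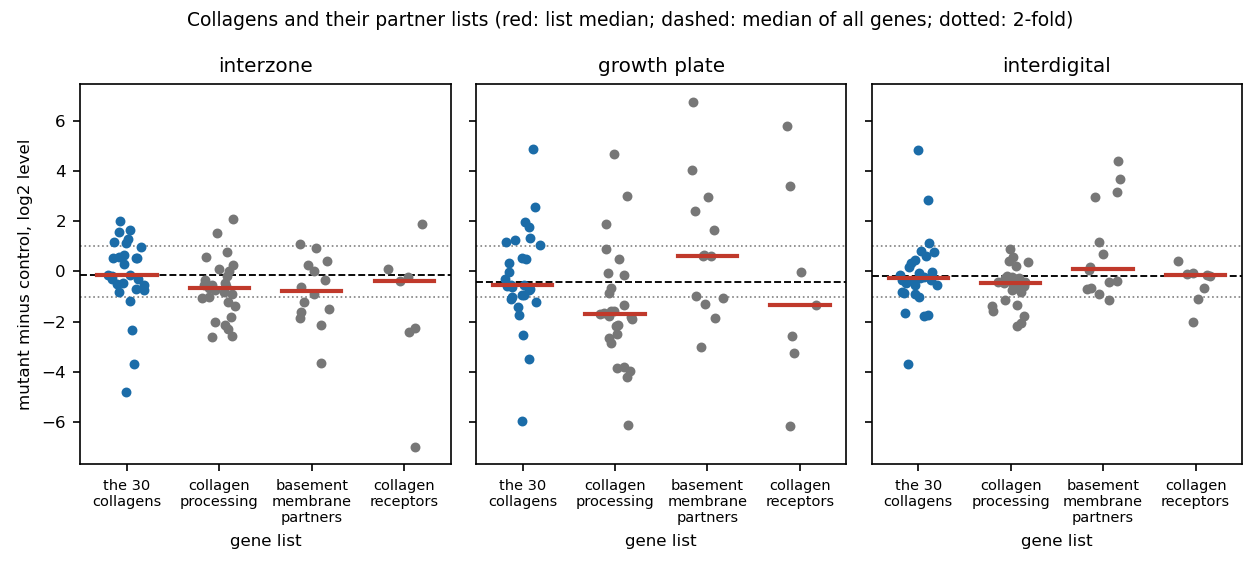
Mutant minus control difference in log2 level (vertical axis) for the 30 collagens (blue) and the 3 partner lists (grey) in each tissue, for genes well above background on both arrays, with the list median in red, the median of all genes dashed and 2-fold dotted. The collagen medians lie near the dashed line in all 3 tissues, and the processing medians lie below it, at -0.64 in the interzone, -1.71 in the growth plate and -0.47 in interdigital tissue.

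Markers of further cell types were read on the same arrays, as counts at least 2-fold higher and lower among genes measured on both arrays of a pair. Beside them, the shares of all genes higher were 17.5%, 22.3% and 10.2% in interzone, growth plate and interdigital tissue. The shares lower were 23.0%, 32.1% and 15.8%. Muscle markers gave 5 higher and none lower of 7 in the interzone, and 1 each way of 7 in interdigital tissue. Macrophage markers gave 5 higher and 1 lower of 7 in the interzone, 2 each way of 6 in the growth plate, and none higher and 2 lower of 7 in interdigital tissue. Interzone markers gave none higher and 5 lower of 5, none higher and 3 lower of 5, and 4 higher and none lower of 6 in interzone, growth plate and interdigital tissue. Interdigital mesenchyme markers gave 1 higher and 3 lower, 1 each way, and 1 higher and none lower of 5. Osteoblast and perichondrium markers gave 1 higher and none lower, 1 higher and 2 lower, and 1 higher and 2 lower of 4. Tendon markers gave none higher in any tissue, with 1 of 2, 2 of 3 and 2 of 3 lower, and nerve markers gave 2 higher and 1 lower and 2 each way of 4 in interzone and growth plate. The part of these cell types in the collagen differences was not tested.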

How the data were processed

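Gene expression was measured on 6 one-colour mouse arrays, 1 per tissue and genotype, read with Agilent Feature Extraction 9.5.1.1 per the file headers. In the deposited scanner files every spot has a processed intensity, background-subtracted per the file headers. The authors' deposited table holds a linear ratio, found by setting it against the scanner values to be the processed intensity over the array's median; each of its columns has a median of 1. Groups were taken from the titles, since 5 descriptions name irradiated human blood, which no other label of those samples does, and the interdigital mutant title spells the mutant Tbr2Prx1KO.

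Control spots and spots marked as outliers (75 to 123 an array) were left out, spots of a probe were averaged, and log2 of the deposited intensity minus the array's 75th percentile was taken, which left 41174 probes. Of these, 32719 were named through RefSeq accessions, symbols or older symbols of GRCm38.p6, and 8455 were not. Where just 1 array of a pair measured a gene, its difference is a bound. There was no test, since each group has 1 array; the number of arrays limits precision. The counting code was tested on simulated data. Alternatives were normexp background correction (limma 3.58.1 in R 4.3.3, offset 50), 2 scalings, the deposited table, the mean over a gene's probes, no filter on dim probes, and 4-fold in place of 2-fold.

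The members and lists were chosen with earlier results of these data known. The text may name every collagen of the list, Tgfbr2, and of each partner list up to 4 genes per comparison with the widest difference between arrays that both measured them; 1 such gene is not reported here. Marker lists covered epidermis, endothelium, skeletal muscle, macrophage, growth plate cartilage, interzone, interdigital mesenchyme, osteoblast and perichondrium, tendon, and nerve and Schwann cell. Probe positions carry no build in the files and are not given. Promoter sequences are those of RefSeq for GRCm38.p6, found for 26 of the 30 genes.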

Additional observations from a re-analysis of the deposited data

Results flagged for a closer look

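In 4 collagens the mutant minus control difference was at least 2-fold in 1 direction in 1 tissue and at least 2-fold in the other direction in another, with all 4 arrays well above background. Col8a1 differed by 1.77 in the growth plate and -2.31 in the interzone. Col6a1 differed by 1.17 in the growth plate and -1.19 in the interzone. Col5a3 differed by 1.25 in the growth plate and -1.64 in interdigital tissue. Col23a1 differed by -1.73 in the growth plate, 1.13 in interdigital tissue and 1.13 in the interzone. The growth plate difference of Col8a1, Col6a1 and Col5a3 fell short of 2-fold with arrays divided by their median, and the mean of its probes turned that of Col23a1 to 2.26. With 1 array per group the difference between tissues was not tested. Each of these contrasts includes the growth plate control array, whose median processed signal was 103 units.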

How the results depend on the processing

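Of the collagens past 2-fold, 7 of 10 in the interzone, 5 of 16 in the growth plate and 6 of 8 in interdigital tissue stayed on that side under normexp correction, both other scalings, the deposited table and the probe mean. Those of the growth plate were Col24a1, Col4a1, Col8a2, Col16a1 and Col17a1. With normexp correction the interzone median was 0.011. With the percentile over probes measured on all arrays, the growth plate had 5 lower, and medians were 0.29 for control interzone minus growth plate, -0.32 for control growth plate minus interdigital and -0.021 for mutant interzone minus interdigital. Quantile normalization gave 5 higher in interdigital tissue and medians of 0.29 and -0.41 for the first and second of these pairs. The deposited table gave an interzone median of 0.12, 2 higher and 18 lower with a median of -1.67 in the growth plate, control medians of -1.27 (interzone minus growth plate), 0.080 (interzone minus interdigital) and 1.58 (growth plate minus interdigital), and -0.061 for Col4a2 in the growth plate. The probe mean gave a growth plate median of 0.19, 5 higher in interdigital tissue, control medians of 0.37, 0.029 and -0.21 in that order, and turned Col23a1 to -0.51 in the interzone and 2.26 in the growth plate, Col1a2 to 2.46 and Col5a3 to -0.22, both in the growth plate. At 4-fold, 1 was higher in the interzone, 2 higher and 3 lower in the growth plate, and 1 lower in interdigital tissue, which follows from the threshold; for the other changes the cause was not tested. The median of all genes moved as well, to 0.31 with normexp correction and 0.12 with the deposited table in the interzone, and with that table to -1.33 for control interzone minus growth plate and 1.61 for control growth plate minus interdigital. Leaving out the filter on dim probes moved none of the comparison counts by over 1.5 times and turned no median. In the remaining checks, 72 of the comparison values kept direction and size. Of the others, 408 stayed within 1.5-fold and 101 moved by over 1.5-fold. Turning was counted for single collagens only where the difference was at least 2-fold, so smaller differences that changed sign are among these. The growth plate difference of Col4a6 is such a case. No paired analysis was possible because the labels carry no replicate numbers and each group has 1 array. A fit of genotype over the 6 arrays, with tissue or slide as a block, was not run. No replicate was left out, since each group has 1.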
